A study of Mus musculus with 6 samples.

Results

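The genes described here are 7 genes of protein folding in the endoplasmic reticulum (ER), the compartment where secreted and membrane proteins fold: the chaperones and folding factors Hspa5, Calr, Pdia3, Sdf2l1 and Creld2, the degradation factor Herpud1 and the thiol oxidase Ero1a. They were chosen by name from earlier results of these data, because the chaperone group was higher and Ero1a lower in the libraries labelled hypoxia, and all 7 were found among the 2065 genes of the deposited table. The RNA came from MLO-Y4, a mouse cell line that resembles osteocytes, the bone cells enclosed in mineralised matrix, and that the labels give as wild type. The 3 libraries labelled normoxia (replicates 2, 3 and 4) were kept at 20% O2 and the 3 labelled hypoxia (replicates 1, 2 and 4) at 2% O2, both for 24 h by their titles, with 24, 25 or 26 h in their descriptions. Cells of both groups were grown in α-MEM with serum and antibiotics, and a single line stands for all osteocytes in this design. The labels do not say that replicates were separate cultures, so the spread between them may be technical.

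Proteins entering the ER are bound by chaperones such as the Hsp70 protein BiP (encoded by Hspa5) and the lectin calreticulin (Calr), and their disulfide bonds are made by protein disulfide isomerases such as ERp57 (Pdia3). Ero1 oxidases reoxidise these isomerases and pass the electrons to molecular oxygen, which yields hydrogen peroxide. When unfolded proteins accumulate, the unfolded protein response, run by the sensors IRE1, PERK and ATF6, raises transcription of chaperone genes through XBP1, ATF6 and ATF4. Ero1a is also known as a target of HIF, the hypoxia-inducible factor, whose alpha subunit is degraded when oxygen is plentiful.

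All values are deposited entries read as log2(value + 1), whose linear unit is unnamed and whose depth cannot be read from the file; levels are therefore compared between libraries for a given gene and not between genes. The authors had selected the 2065 genes on this same contrast (log2 fold changes from 1.00 upwards in size), and 1638 of them are higher and 427 lower under the hypoxia label, so genes outside the table have no value here. The labels were checked first: of 15 fixed HIF target genes other than Ero1a 10 were listed, and all 10 were lower in the libraries labelled hypoxia under each scaling tried, where 79.4% of the 2056 tested genes were called higher and 20.6% lower at an adjusted p under 0.05 (limma with Benjamini-Hochberg adjustment), leaving none without a call. Their summed linear values lay between 5671 and 5983 in normoxia-labelled libraries and between 1395 and 1615 in hypoxia-labelled ones. This direction is opposite to what HIF targets are known to do at low oxygen, so every direction below refers to the labels only. Of 10 osteocyte markers Pdpn, Bglap and Bglap2 were listed, all higher under the hypoxia label, also with trimmed mean (TMM) scaling factors, with summed linear values of 379 to 400 against 103 to 123; Bglap and Bglap2 are near-identical copies whose reads may be split. The defining osteocyte genes Dmp1, Sost, Phex, Mepe and Fgf23 were not among the listed genes. Of 19 markers of other cell types 4 were listed, Cebpa at a difference of 1.20 and Cd68, Sox9 and Acta1 at differences of -1.46, -2.12 and -2.59, and with summed linear values of 110 to 124 in the normoxia-labelled libraries and 28.0 to 33.9 in the hypoxia-labelled ones. The part of these markers in the differences below was not tested. In bulk RNA, a difference in the number of cells of a type and a difference in RNA per cell cannot be told apart.

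Promoter sequence was read as a property beside the expression values. ATF6 and XBP1 are known to act through the ER stress response element (ERSE), searched as CCAAT, 9 bases, CCACG on both strands, and through ERSE-II, searched as ATTGG, 1 base, CCACG. The ERSE was first defined on the mammalian promoters of Hspa5, Hsp90b1 and Calr, and ERSE-II on that of human HERPUD1, so matches in these genes were known beforehand and the shares below are no independent evidence for them. RefSeq promoter windows (build GRCm38.p6, from 250 bases before to 50 after the transcript start) were found for all 7 genes, 1 window each. An exact ERSE was present in Hspa5, Calr and Creld2, that is 3 of the 6 genes other than Ero1a, while 37 of the 27025 genes with a window held it (0.137%). Herpud1 held an ERSE-II, which 12 of the 27025 genes held (0.044%). Ero1a, Sdf2l1 and Pdia3 had neither exact match, which says only that these letters are not in these windows. The 250 bases before the start are printed for the 4 genes with a match, for Ero1a and for its paralog Ero1b, from chr2:34771840-34772089 (+ strand, Hspa5), chr8:84846932-84847181 (- strand, Calr), chr15:88819396-88819645 (+ strand, Creld2), chr8:94386179-94386428 (+ strand, Herpud1), chr14:45318573-45318822 (- strand, Ero1a) and chr13:12565633-12565882 (+ strand, Ero1b). Capitals mark the ERSE in Hspa5, Calr, Creld2 and Ero1b, the ERSE-II in Herpud1 and, in Ero1a, the core letters of the hypoxia response element (HRE), ACGTG or GCGTG on either strand.
Hspa5: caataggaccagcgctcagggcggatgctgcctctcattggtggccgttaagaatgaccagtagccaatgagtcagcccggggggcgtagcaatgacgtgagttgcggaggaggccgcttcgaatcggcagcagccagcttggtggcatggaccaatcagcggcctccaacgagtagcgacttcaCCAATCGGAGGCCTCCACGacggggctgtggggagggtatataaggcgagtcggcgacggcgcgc
Calr: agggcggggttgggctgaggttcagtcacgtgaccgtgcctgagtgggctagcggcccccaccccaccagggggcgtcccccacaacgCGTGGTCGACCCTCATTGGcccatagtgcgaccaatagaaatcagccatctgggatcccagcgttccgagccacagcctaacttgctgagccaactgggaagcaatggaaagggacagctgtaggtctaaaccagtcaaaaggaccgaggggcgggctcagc
Creld2: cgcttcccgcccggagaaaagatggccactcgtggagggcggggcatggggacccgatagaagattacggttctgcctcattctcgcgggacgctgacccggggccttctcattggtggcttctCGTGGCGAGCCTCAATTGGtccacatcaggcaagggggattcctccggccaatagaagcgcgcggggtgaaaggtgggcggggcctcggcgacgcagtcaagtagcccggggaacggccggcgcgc
Herpud1: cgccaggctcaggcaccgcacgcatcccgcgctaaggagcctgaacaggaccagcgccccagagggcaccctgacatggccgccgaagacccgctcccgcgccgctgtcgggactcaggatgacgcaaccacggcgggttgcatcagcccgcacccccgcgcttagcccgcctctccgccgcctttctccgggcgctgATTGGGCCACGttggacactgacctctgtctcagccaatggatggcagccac
Ero1a: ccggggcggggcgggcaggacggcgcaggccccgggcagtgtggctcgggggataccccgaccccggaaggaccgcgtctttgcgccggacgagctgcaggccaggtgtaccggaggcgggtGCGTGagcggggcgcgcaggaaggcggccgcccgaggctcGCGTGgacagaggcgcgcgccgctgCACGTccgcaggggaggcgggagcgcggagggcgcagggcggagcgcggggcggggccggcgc
Ero1b: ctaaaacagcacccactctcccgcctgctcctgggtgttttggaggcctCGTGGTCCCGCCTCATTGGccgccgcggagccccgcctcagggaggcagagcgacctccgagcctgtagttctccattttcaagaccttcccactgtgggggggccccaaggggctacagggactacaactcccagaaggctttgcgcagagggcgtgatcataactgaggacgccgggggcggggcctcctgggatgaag

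The first base of the element lay 65 bases before the start in Hspa5, 162 in Calr, 126 in Creld2 and 52 in Herpud1. The element reads from CCAAT to CCACG along the gene's strand in Hspa5 and in the opposite direction in Calr and Creld2. The Creld2 element lies at chr15:88819520-88819538 and is the same site as the ERSE in the window of the neighbouring gene Alg12, a mannosyltransferase of the ER, whose entry was higher by 1.22 as deposited and by 0.0008 with TMM factors. Among the genes on the ER lists other than these 7, 23 listed genes had a window and 5 of them held an ERSE (21.7%): Dnajc3, Ero1b, Hsp90b1, Pdia6 and Syvn1. Of the ER list genes outside the table, 2 of 80 held it (2.50%). Of all listed genes, 10 of 1419 with a window held an ERSE (0.705%), and all 10 were listed as higher, where 1201 of the 1419 windows belong to genes listed as higher. Hsp90b1 held a pair of these elements, 212 and 107 bases before its start. The sites are set side by side because the 9 bases between the fixed letters differ from gene to gene; each is written from CCAAT to CCACG, with the fixed letters in capitals.
Hspa5: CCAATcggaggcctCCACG
Calr: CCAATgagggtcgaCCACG
Creld2: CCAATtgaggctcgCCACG
Dnajc3: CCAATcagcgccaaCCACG
Hsp90b1, first site: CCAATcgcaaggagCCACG
Hsp90b1, next site: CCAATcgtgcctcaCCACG
Pdia6: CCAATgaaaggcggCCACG
Syvn1: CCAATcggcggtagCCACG
Ero1b: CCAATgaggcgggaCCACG

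The HRE core is short and common, and 46.7% of all genes with a window held it. It was found in 67.4% of listed genes with a window, in 66.5% of those listed as higher and in 72.0% of those listed as lower. Ero1a held 3 cores, starting 128, 88 and 63 bases before the start. Among the other 6 genes Calr held 3, Hspa5 and Herpud1 2 each, Sdf2l1 and Pdia3 1 each and Creld2 none. The cores of Calr that start 224 and 223 bases before the start are the same CACGTG read on both strands. The remaining core of Calr overlaps its ERSE, and 1 of Herpud1 overlaps its ERSE-II. Herpud1 also held the core of the composite site read by ATF4 (TGATG, 1 base, AA), 112 bases before the start, which 4.51% of all genes held. The core letters of the unfolded protein response element (TGACGTGG), held by 0.714% of all genes, were in none of the 7 windows.

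**Figure D1:**
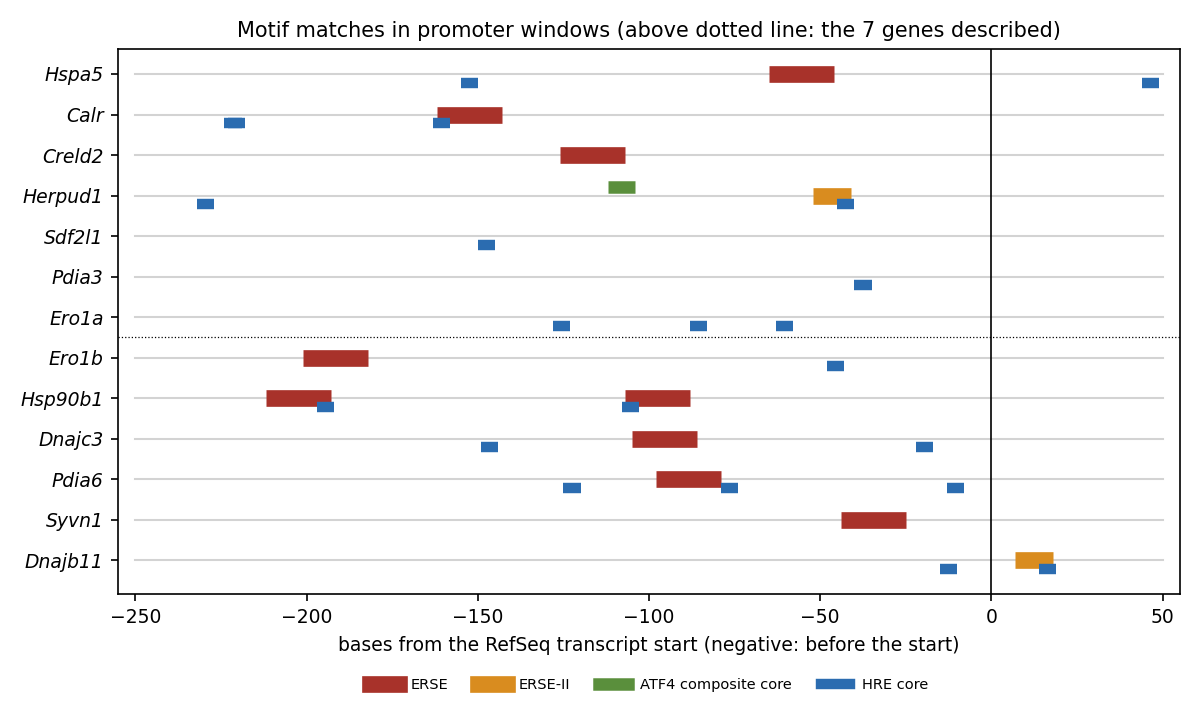
Motif matches in the RefSeq promoter windows of the 7 genes (above the dotted line) and of 6 other ER genes that hold an ERSE or ERSE-II; the horizontal axis is the distance in bases from the transcript start, and each coloured block is a match on either strand. The ERSE lies 65, 162 and 126 bases before the start in Hspa5, Calr and Creld2, and of the motifs searched Ero1a has only HRE cores.

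The largest differences of the chaperone group were in Sdf2l1, Herpud1 and Creld2. Sdf2l1 (ENSMUSG00000022769, chromosome 16) encodes an ER-resident partner of BiP and its co-chaperone Dnajb11. Its entries were 5.56, 5.16 and 5.32 in normoxia-labelled replicates 2, 3 and 4, and 8.78, 8.46 and 8.58 in hypoxia-labelled replicates 1, 2 and 4. The groups did not overlap, and the means were 5.34 ± 0.20 and 8.61 ± 0.17 (SD, n = 3), a difference of 3.26 with a standard error of 0.12 from the limma model over all tested genes. On the linear scale the mean value was 9.80-fold higher. Sdf2l1 stood 16th among the genes listed as higher when these were ordered by their difference.

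Creld2 (ENSMUSG00000023272, chromosome 15) encodes an ER protein with epidermal growth factor-like domains that is induced by ER stress. It read 6.30, 6.14 and 6.15 in libraries with the normoxia label and 9.25, 8.87 and 9.02 in libraries with the hypoxia label, again without overlap. The mean went from 6.20 ± 0.09 to 9.05 ± 0.19 (SD, n = 3), higher by 2.85 with a standard error of 0.10, or 7.33-fold on the linear scale. Herpud1 (ENSMUSG00000031770, chromosome 8) encodes an ER membrane protein that helps assemble the machinery of ER-associated degradation. Its entries of 6.14, 5.92 and 5.86 in normoxia-labelled and of 8.92, 8.71 and 9.05 in hypoxia-labelled libraries did not overlap. The mean was 5.97 ± 0.15 against 8.89 ± 0.17 (SD, n = 3), a difference of 2.92 with a standard error of 0.11 and a linear ratio of 7.67.

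Hspa5, Calr and Pdia3 differed by less. Hspa5 (ENSMUSG00000026864, chromosome 2) read 11.65, 11.63 and 11.87 in normoxia-labelled and 12.91, 12.60 and 12.79 in hypoxia-labelled libraries. Its mean of 11.72 ± 0.13 against 12.77 ± 0.16 (SD, n = 3) is a difference of 1.05 with a standard error of 0.10, or 2.07-fold on the linear scale, close to the limit of 1.00 at which the authors listed genes. Calr (ENSMUSG00000003814, chromosome 8), which also buffers calcium in the ER, read 9.92, 9.80 and 9.92 against 11.17, 11.04 and 10.99. Its difference was 1.18 with a standard error of 0.08, from 9.88 ± 0.07 to 11.07 ± 0.09 (SD, n = 3). Pdia3 (ENSMUSG00000027248, chromosome 2), the isomerase that works with calreticulin on glycoproteins, read 8.60, 8.43 and 8.63 against 9.93, 9.82 and 9.76. Its difference was 1.28 with a standard error of 0.08, from 8.55 ± 0.11 to 9.84 ± 0.09 (SD, n = 3). None of these 3 genes had overlapping groups, and they stood 1408th (Hspa5), 945th (Calr) and 715th (Pdia3) of the 1638 genes listed as higher. In an older annotation (GENCODE vM21) the exons of Pdia3 overlap those of Catsper2 on the opposite strand; the library kit keeps strand, and how strand was set in the counting is not stated in the labels.

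Ero1a (ENSMUSG00000021831, chromosome 14) went the other way. Replicates 2, 3 and 4 with the normoxia label read 12.12, 12.27 and 12.29, and replicates 1, 2 and 4 with the hypoxia label read 9.37, 8.96 and 9.05. The mean was 12.23 ± 0.09 against 9.13 ± 0.22 (SD, n = 3), a difference of -3.10 on the log2 scale with a standard error of 0.11, which is 8.51-fold lower on the linear scale. Ero1a stood 16th among the 427 genes listed as lower. The absence of overlap between groups in all 7 genes carries no weight, since 99.9% of the 2065 listed genes show it (79.3% higher and 20.6% lower).

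**Figure D2:**
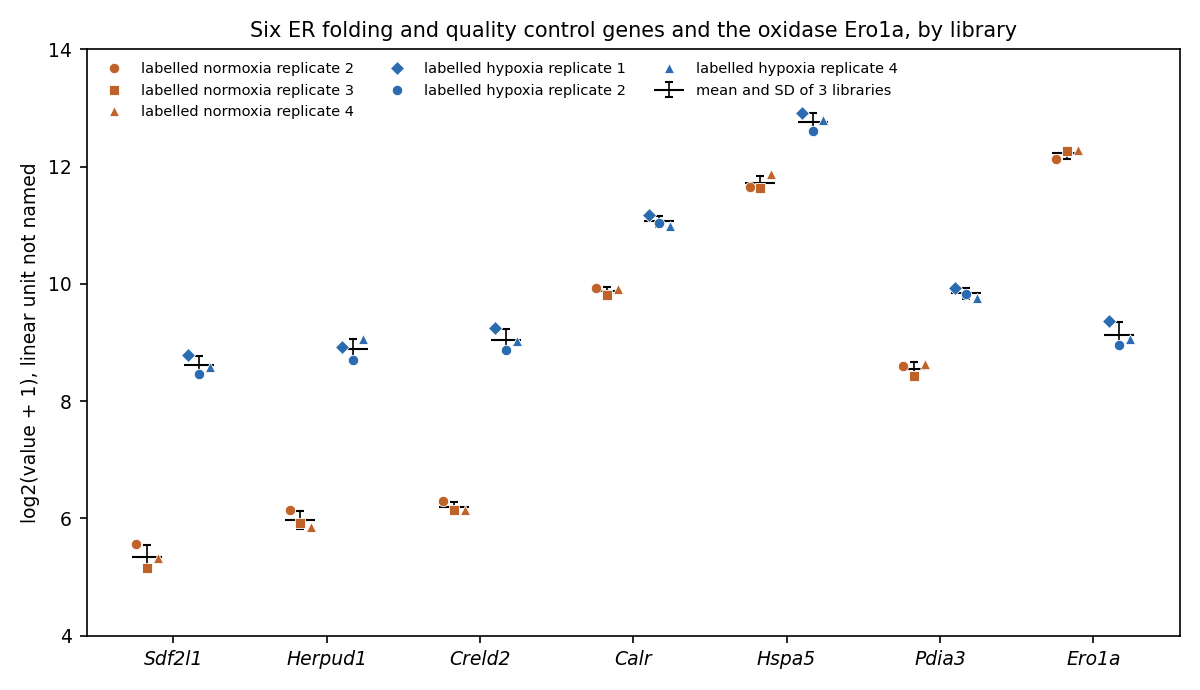
Deposited entries of the 7 genes in each of the 6 libraries, on the log2(value + 1) scale with an unnamed linear unit; orange points are libraries labelled normoxia, blue points libraries labelled hypoxia, and bars give the mean and SD of 3 libraries. Ero1a lies near 12 in normoxia-labelled and near 9 in hypoxia-labelled libraries, and the other 6 genes are higher under the hypoxia label as deposited, a direction that Calr, Hspa5 and Pdia3 lose with TMM factors.

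How these differences read depends on the scaling of the libraries. The median difference over the 2056 tested genes was 1.15 as deposited, 0.36 after quantile normalization and 0.003 with TMM factors, since most listed genes are higher. Set against the deposited median, Sdf2l1 was higher by 2.11, Herpud1 by 1.77 and Creld2 by 1.70. Calr stood 0.03 above it, Pdia3 0.13 above it and Hspa5 at -0.10, all close to the median listed gene. This median was taken over genes selected for differences from 1.00 upwards in size, most of them higher. It is therefore no baseline for all expressed genes. Ero1a stood at -4.25 from the same median. With TMM factors the differences were 1.98 for Sdf2l1, 1.63 for Herpud1 and 1.56 for Creld2, -0.12 for Calr, -0.25 for Hspa5, -0.02 for Pdia3 and -4.39 for Ero1a. The standard errors for Calr, Hspa5 and Pdia3 were then 0.10, 0.14 and 0.10, and their values lay near 0. TMM factors were computed on the selected listed genes and bring the median difference of those genes to 0.003. Genes close to the deposited median therefore lose their direction by construction. Calr, Hspa5 and Pdia3 were higher as deposited and after quantile normalization (1.91, 2.08 and 1.16). Their sign thus depended on the scaling. The change with TMM factors was set by this construction, so it cannot decide their direction. With depth unknown, the direction is not fixed here. Sdf2l1, Herpud1 and Creld2 were higher and Ero1a lower under each of the 3 scalings.

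A comparison made inside each library does not carry a scaling factor, because a factor common to a library cancels between 2 well expressed genes. The entry of Ero1a minus that of Hspa5 was 0.47, 0.64 and 0.42 in normoxia-labelled and -3.54, -3.64 and -3.73 in hypoxia-labelled libraries. This is a 17.7-fold difference of the ratio between the labels. For Calr the offset went from 2.34 ± 0.14 to -1.94 ± 0.14 and for Pdia3 from 3.67 ± 0.16 to -0.71 ± 0.15 (SD, n = 3), which are 19.4-fold and 20.8-fold differences of the ratio. Against the median of the 2056 tested genes the offset of Ero1a differed 18.98-fold, so the values for Hspa5, Calr and Pdia3 are close to that of the median tested gene. That median, and with it the 18.98-fold value, is shaped by the selection of the listed genes. The offset to Sdf2l1 was 6.56, 7.11 and 6.97 with the normoxia label and 0.59, 0.51 and 0.47 with the hypoxia label, an 82.1-fold difference of the ratio. Herpud1 and Creld2 gave 64.6-fold and 61.6-fold differences. Averaged over the 6 genes, the offset was 4.09, 4.42 and 4.33 in normoxia-labelled and -0.79, -0.95 and -0.98 in hypoxia-labelled libraries. That is a difference of -5.19 on the log2 scale, far wider than the SDs of 0.17 and 0.10 within the groups, and it is a description of genes chosen for this contrast.

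**Figure D3:**
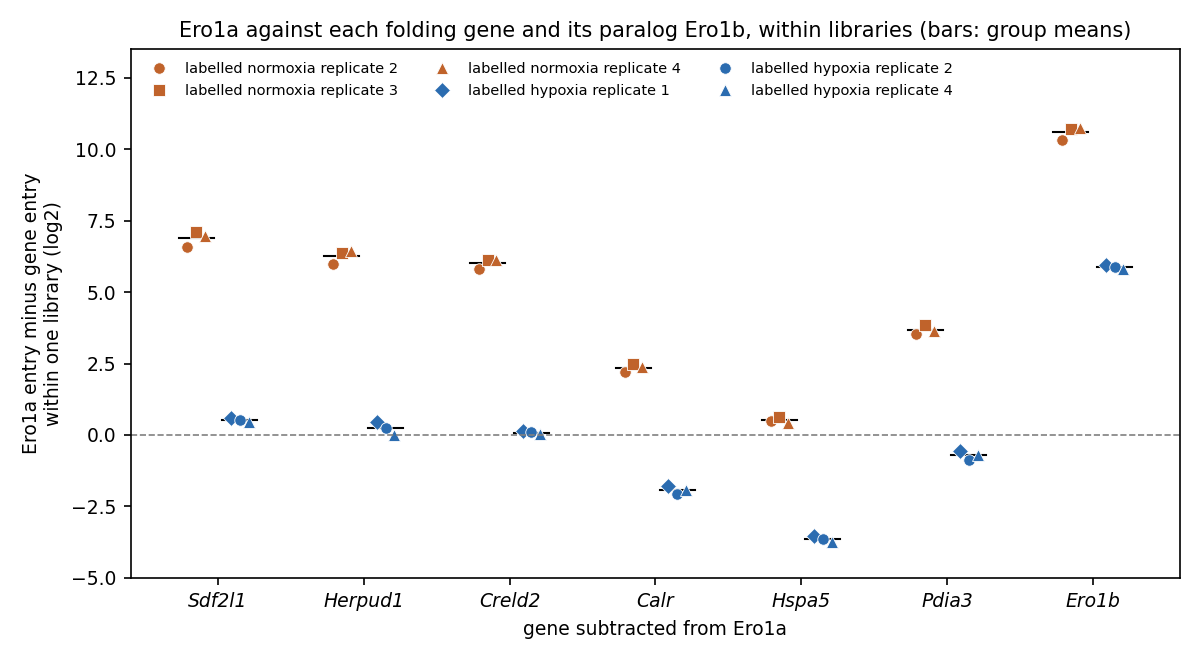
Entry of Ero1a minus the entry of each folding gene, or of the paralog Ero1b, within each library (log2); points are single libraries, orange for the normoxia label and blue for the hypoxia label, and bars are group means. The offset drops by 4.15 for Hspa5 up to 6.36 for Sdf2l1 between the labels; the zero line is no boundary, since levels of different genes have no common unit here.

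Within a label, the deviations of the libraries from their group mean were small. Replicate 1 was the highest of the hypoxia-labelled libraries for 6 of the 7 genes, Herpud1 being the exception, and replicate 2 was the lowest for 5. The median deviation of the 6 genes other than Ero1a from their group means was 0.12 in replicate 1 and -0.16 in replicate 2, where over all 2065 listed genes it was -0.002 and 0.02. Under the normoxia label replicate 3 was the lowest for 5 of the 6 genes, with a median deviation of -0.08 against -0.03 over all listed genes. Replicate 2 was the highest for 4 of the 6, with a median deviation of 0.08 that was no larger than the 0.09 over all listed genes. Ero1a deviated in the same direction as the median of the other 6 in hypoxia-labelled replicates 1 (0.24) and 2 (-0.17), and in the opposite direction in normoxia-labelled replicates 2 (-0.11) and 3 (0.05). The direction was also the same in hypoxia-labelled replicate 4 (-0.08, other 6 at -0.03) and normoxia-labelled replicate 4 (0.06, other 6 at 0.006).

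The paralog Ero1b, an oxidase known to be induced by the unfolded protein response, was listed in the opposite direction to Ero1a. Its entries were low, at 1.79, 1.56 and 1.55 in normoxia-labelled replicates 2, 3 and 4 and 3.42, 3.07 and 3.24 in hypoxia-labelled replicates 1, 2 and 4, with no overlap. It was higher by 1.61 with a standard error of 0.12 (limma, adjusted p = 8.5e-07) and remained higher with TMM factors, by 0.58 with a standard error of 0.11 (limma, adjusted p = 0.00281). All 2056 tested genes had been selected on this contrast, and all were called as deposited. A call on the deposited entries, with its adjusted p, therefore adds no support, here or for the genes below. Calls after quantile normalization or with TMM factors use the same selected genes and libraries, so they are no independent support either. With TMM factors a call says only that a gene lies away from the middle of the selected genes. The entry of Ero1a minus that of Ero1b went from 10.59 ± 0.22 to 5.89 ± 0.07 (SD, n = 3). Ero1b is low, with linear values of 1.92 to 2.45 and 7.39 to 9.68, so the added 1 does not cancel: the ratio of the paralogs differed 26.1-fold with a pseudocount of 1, 33.3-fold with 0.1 and 16.1-fold with 5. The remaining listed gene of ER thiol oxidation, the sulfhydryl oxidase Qsox2, was higher by 1.03 as deposited, by 0.13 without a call after quantile normalization and stood at -0.18 without a call with TMM factors. The other 9 of the 12 genes on that list were not listed.

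The wider ER machinery was read from 7 lists that hold 130 genes, of which 35 were listed. Leaving out the 7 genes above, 28 of 123 remained, and 27 of them were called higher and 1 lower, where 79.4% of all 2056 tested genes were called higher and 20.6% lower. Their median difference was 1.45, against 1.15 over all tested genes. After quantile normalization 26 were higher and 1 lower, where 67.6% of tested genes were called higher and 20.5% lower. With TMM factors 13 were higher and 2 lower, and 7 had a difference below 0, where 26.4% of tested genes were called higher and 25.0% lower.

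Among the other chaperones, Dnajc3, a co-chaperone of BiP, was higher by 2.59 with a standard error of 0.11 (limma, adjusted p = 4.79e-08). Hyou1, the nucleotide exchange factor of BiP, was higher by 2.27 with a standard error of 0.10 (limma, adjusted p = 5.59e-08). The BiP co-chaperones Dnajb11 and Dnajc10, the stress-induced secreted factor Manf and the collagen chaperone Serpinh1 were higher by 1.54 to 1.73. These 6 genes were called higher under all 3 scalings, with Dnajc10 (0.26), Serpinh1 (0.28) and Manf (0.31) small with TMM factors. Manf was then just under the threshold (limma, adjusted p = 0.0493). Hsp90b1, the Hsp90 protein of the ER, was higher by 1.41 and the prolyl isomerase Fkbp14 by 1.43, and neither was called with TMM factors (0.11 and 0.31). Fkbp14 was then just over the threshold (limma, adjusted p = 0.0607). Of the isomerases Pdia4 was higher by 2.37, Txndc11 by 1.79 and Pdia6 by 1.69, and all 3 were called with TMM factors too. Txndc5 was higher by 1.38 and was not called with TMM factors, while Tmx3 was higher by 1.07 as deposited and called lower with TMM factors, at -0.21.

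Of the degradation machinery, the ubiquitin ligase Syvn1 was higher by 2.27 and its partner Sel1l by 1.86, and both kept their call with TMM factors at 1.02 and 0.59. Selenos and Derl2, which belong to the retrotranslocation complex, were higher by 1.47 and 1.28 and were not called with TMM factors. H13, a signal peptide peptidase, was higher by 1.20 as deposited and at -0.08 without a call with TMM factors. Among the sensors and transcription factors 3 of 16 genes were listed. Xbp1 was higher by 1.70 with a standard error of 0.07 (limma, adjusted p = 5.07e-08) and by 0.41 with TMM factors (limma, adjusted p = 0.0012). The sensor PERK (Eif2ak3) was higher by 1.24 and Creb3l2 by 1.28, and neither was called with TMM factors. Of 15 genes of the PERK branch and ATF4 outputs 2 were listed: Sesn2 was higher by 1.23 as deposited and at -0.04 with TMM factors, and Ddit4, which is a HIF target as well, was lower at -1.39 (limma, adjusted p = 2.61e-07) and lower under all 3 scalings. Of the translocation and signal peptide genes Spcs3, Spcs2 and Ssr2 were higher by 1.09 to 1.39 as deposited, with none called under TMM factors and Spcs2 and Ssr2 then at -0.16 and -0.20.

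**Figure D4:**
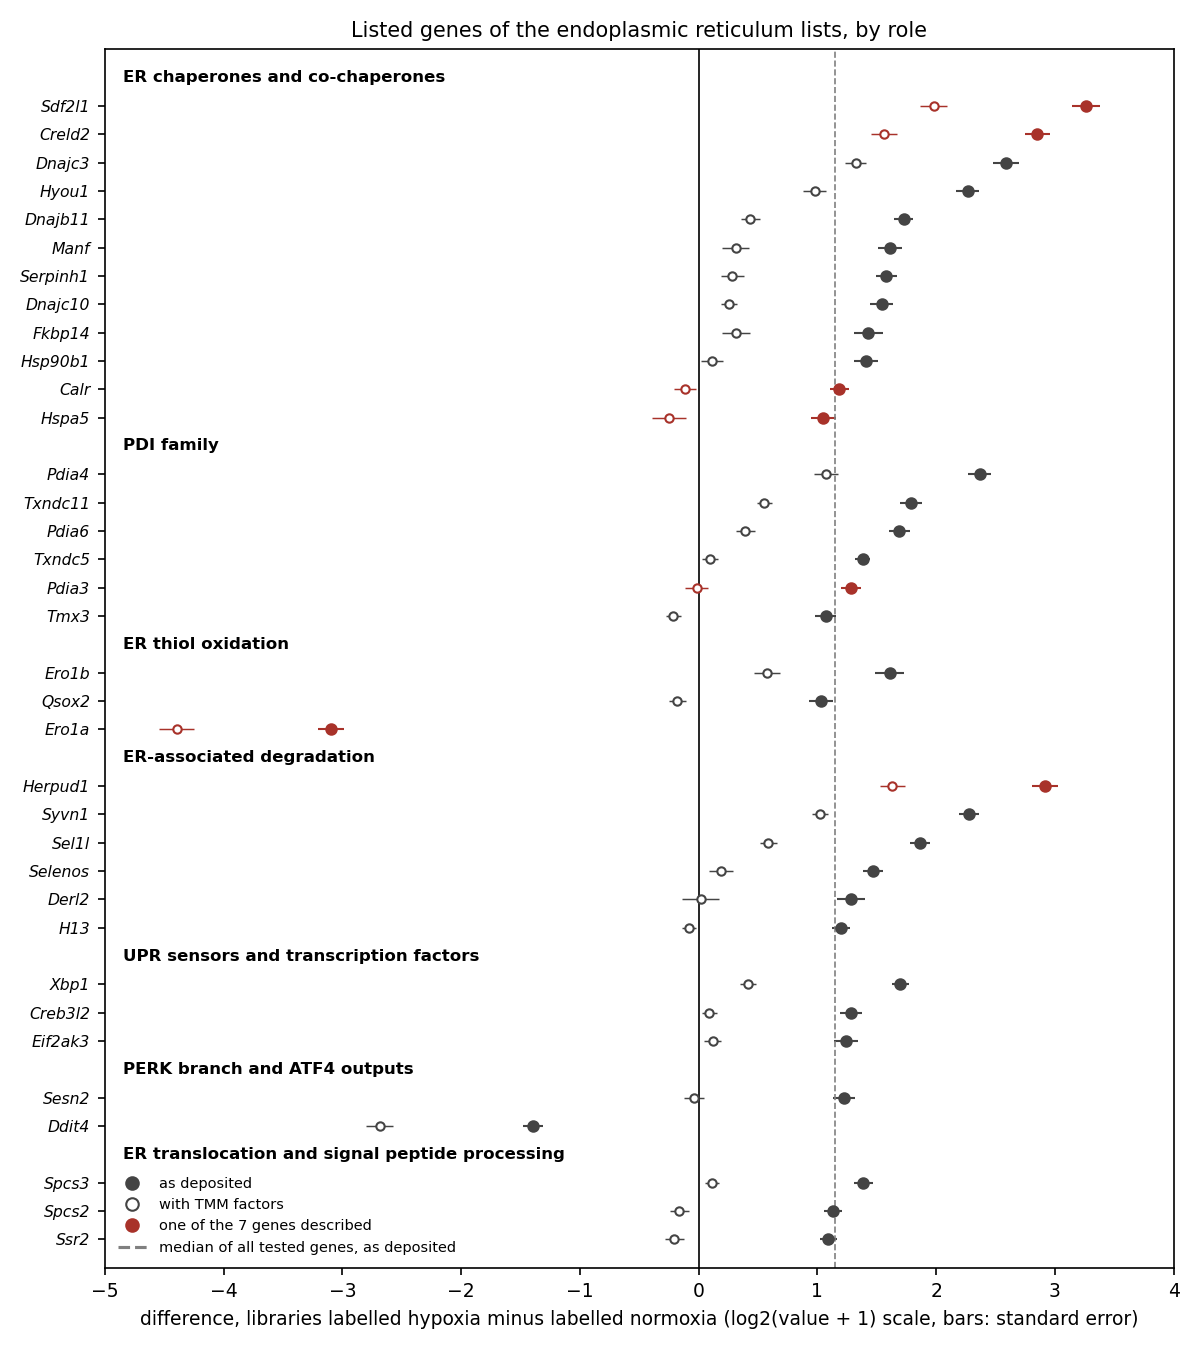
Differences between the libraries labelled hypoxia and normoxia for the 35 listed ER genes, ordered by role; filled points are as deposited, open points with TMM factors, red marks the 7 genes described, bars are standard errors and the dashed line is the median of all tested genes as deposited. Only Ero1a and Ddit4 lie below 0 as deposited, while with TMM factors Calr, Hspa5, Pdia3, Tmx3, Qsox2, H13, Sesn2, Spcs2 and Ssr2 lie below 0 as well.

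For the genes at both ends, the listed genes with the most similar profile were found by the root mean square difference of centred entries over the 6 libraries. Nearest to Ero1a was Slc2a1 at 0.07, a glucose transporter that was among the HIF targets of the label check. Its mean was 10.85 ± 0.10 in normoxia-labelled and 7.72 ± 0.12 in hypoxia-labelled libraries (SD, n = 3). Chaserr, Sik1, Pet117 and Dnajb1 followed at 0.11 to 0.16, and Pet117 is listed at 0 in all 3 libraries labelled hypoxia. Nearest to Sdf2l1 were the matrix metalloproteinase Mmp3 at 0.15, Sema7a, Mmp13, Id3 and Csf3 at up to 0.22, and no gene of the ER lists was among these 5. Nearest to Hspa5 were Camkk2 at 0.05, Ints6l, Fdps, Ydjc and Chid1 at up to 0.08. None of these 5 was called with TMM factors, where Camkk2, Fdps and Chid1 lay below 0 as Hspa5 did. With 6 libraries in 2 groups this likeness is mostly the size of the difference between the labels.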

How the data were processed

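Messenger RNA libraries were made with a stranded kit, per the labels' protocols. Tools and builds listed in the submitters' processing notes are FastQC 0.12.0, DRAGEN and GRCm39, without settings or a test. The table the authors deposited holds log2 entries per library, log2 fold changes and adjusted p-values for selected genes, the largest p-value deposited being 0.0926. Raising 2 to an entry and subtracting 1 gave 3 decimals for 100.0% of entries (tolerance 1e-06), so entries were read as log2(value + 1). The deposited fold changes equal differences of group means. Depth is unknown, so no counting interval can be given. Another 21 columns per library or animal were not used.

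The entries are not counts, so limma 3.58.1 (R 4.3.3; trend, robust, two-sided, Benjamini-Hochberg, adjusted p under 0.05) was fitted to log2(value + 1) for the 2056 genes that reached a linear value of 1 in 3 or more libraries; 9 were left out. The fit was tested on simulated data. The 7 genes, the lists and the tests were chosen with earlier results of these data known, and the 7 genes get values and standard errors but no p. Named genes were the 7, every listed gene of the fixed lists, and the 5 nearest profiles of Ero1a, Sdf2l1 and Hspa5 without predicted genes; Alg12 was added after its values were seen. Hm13 was matched to H13 through RefSeq synonyms. Promoters came from RefSeq (GRCm38.p6), an older build than that of the files, and 1419 of 2029 listed symbols had a window. Alternatives were other pseudocounts and filters, quantile normalization, TMM factors over the listed genes, a replicate block, limma without trend, each library left out, a threshold of 0.01 and a shorter promoter window. Protein features were planned and not analysed here.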

Additional observations from a re-analysis of the deposited data

How the results depend on the processing

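The scaling of the libraries was the choice that moved the results; the TMM and quantile factors were computed on genes selected for change, and depth is unknown. After quantile normalization the differences were 2.73 for Sdf2l1, 2.33 for Herpud1, 2.26 for Creld2, 1.91 for Calr, 2.08 for Hspa5, 1.16 for Pdia3 and -2.74 for Ero1a, and the mean offset of Ero1a from the 6 genes was -4.82 in place of -5.19. With TMM factors they were 1.98, 1.63, 1.56, -0.12, -0.25, -0.015 and -4.39. Calr, Hspa5 and Pdia3 thus changed sign, to values near 0 with standard errors of 0.10, 0.14 and 0.10. TMM factors also left 13 ER list genes called higher in place of 27, 2 called lower in place of 1, and 543 tested genes higher in place of 1633. They changed the sign of Tmx3 (-0.21), Qsox2 (-0.18), H13 (-0.082), Sesn2 (-0.039), Ssr2 (-0.20), Spcs2 (-0.16), Camkk2 (-0.19), Fdps (-0.24) and Chid1 (-0.18). Only Tmx3 among these was then called lower, and the others had no call. Of 898 values of 60 single genes under the alternatives, 876 had the same direction and call as the main value. Another 13 kept the direction and lost the call, and 9 changed sign, all 22 under quantile normalization or TMM factors. In the 150 bases before the start, 0 of 23 other listed ER genes held an ERSE-II, against 1 in the whole window, since the match in Dnajb11 lies after the start, and the ERSE was held by 2 in place of 3 of the 6 genes (Calr lost), by 4 in place of 5 of the 23 (Ero1b lost) and by 26 in place of 37 of all genes. The replicate numbers shared by both labels, 2 and 4, do not pair the libraries (correlation of deviations 0.08 and -0.07). With these numbers as a replicate block in 4 libraries, Calr was 1.09 and Pdia3 1.17, moves beyond their spread between replicates. Within their spread, Sdf2l1 was 3.08, Herpud1 2.88, Creld2 2.72, Hspa5 0.94, Ero1a -3.19 and the mean offset -5.175. The block left 1627 tested genes called higher and 418 lower, with the ER list counts unchanged. Leaving out each library in turn gave 3.17 to 3.37 for Sdf2l1, 2.84 to 3.01 for Herpud1, 2.75 to 2.94 for Creld2, 1.13 to 1.22 for Calr, 0.98 to 1.13 for Hspa5, 1.22 to 1.32 for Pdia3, -3.22 to -3.01 for Ero1a, -5.28 to -5.12 for the offset, and 1632 to 1633 tested genes higher; the ER list counts did not move. Pseudocounts and filters moved no difference of the 7 genes beyond the spread between replicates. With pseudocounts, filters, limma without trend and the threshold of 0.01 the ER list counts did not move. The counts over all tested genes moved most with the filter of 5, which left 1766 genes tested. Of these 1418 were called higher and 348 lower, in place of 1633 and 423.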
